A study of Mus musculus with 13 samples.

Results

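Fatty acid oxidation and ketone use in mitochondria were followed through 34 genes, which were picked by name for the reactions that their products carry out. The 34 genes include enzymes that activate fatty acids, the carnitine shuttle, acyl-CoA dehydrogenases, the later steps of the β-oxidation spiral, electron transfer proteins, thioesterases, enzymes of ketone use and uncoupling proteins. All 34 were found among the 34419 genes of the count table, and all 34 had enough counts to be tested. Their mRNA was measured in gluteal white adipose tissue (WAT), a subcutaneous fat depot, of male C57BL/6J mice aged 13 weeks that had lived since birth at 22°C (room temperature, *n* = 7) or 29°C (thermoneutrality, *n* = 6). Mice of both groups had their posterior hair removed after weaning and were housed singly with little bedding, and no group with intact hair is part of the comparison. Each mouse gave 1 library of total RNA. The tissue was not separated into cell types, so that fewer cells of a type and less RNA per cell cannot be told apart.

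Before β-oxidation, long-chain acyl-CoA synthetases (ACSL) join a fatty acid to Coenzyme A. Carnitine palmitoyltransferase 1 (CPT1) on the outer mitochondrial membrane transfers the acyl group to carnitine, a translocase carries it across the inner membrane, and CPT2 returns it to Coenzyme A. In the matrix each turn of the spiral consists of dehydrogenation, hydration, another dehydrogenation and thiolysis, which shortens the chain and releases acetyl-CoA. White adipocytes mostly store fatty acids and release them to other organs, whereas brown adipocytes, heart and oxidative skeletal muscle burn them at high rates. Ketone bodies made in liver are turned back into acetyl-CoA in other tissues.

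Libraries held between 22356637 and 25245785 counts. The totals formed a lower cluster, made of 22°C replicates 1 to 5, and a higher cluster, made of all 6 mice at 29°C together with 22°C replicates 6 and 7, so temperature can be compared at similar totals in 2 mice at 22°C only. White adipocyte markers, including adiponectin and perilipin 1, summed to between 15080 and 23040 CPM (counts scaled by the total of the library) at 22°C and between 18570 and 22970 CPM at 29°C, and 1 of 9 was called, *Lep*, which encodes leptin and fell by 0.78 on the log2 scale (P-adj = 0.0564). Markers of skeletal muscle fibres varied far more. All 12 of the muscle genes had a higher mean at 22°C, and 0 of 12 passed P-adj below 0.1. For 6 of 12 the unadjusted p was below 0.05, against 18.5% of all genes tested. Each of the 12 was highest in 22°C replicates 1, 4 and 7, so these counts do not stand for 12 separate observations. The summed level was 699.8 to 79920 CPM at 22°C and 88.8 to 6253 CPM at 29°C. These 12 genes took 4.86% of all counts in 22°C replicate 1, 7.02% in 22°C replicate 7 and 1.26% in 22°C replicate 4, and at most 0.651% in each of the other 10 libraries. Of 7 markers of brown and beige adipocytes 6 were tested and 3 called (*Cidea*, *Cox8b* and *Otop1*, all higher at 22°C), against 1.94% of all genes tested. *Elovl3* had a log2 fold change of −0.03. The 7 markers summed to 8.64 to 29.3 CPM at 29°C. At 22°C they summed to 177.3 and 159.3 CPM in replicates 1 and 7, the libraries richest in muscle genes, with 110.6 and 108.7 CPM from *Cox8b*. In the other mice at 22°C the sum was 40.2 to 57.0 CPM, and the part of muscle in these levels was not tested. *Ucp1*, the uncoupling protein that defines thermogenic fat, had 13 counts over all 13 libraries together and was too low to test. Macrophage markers summed to 470.6 to 859.1 CPM at 22°C and 471.3 to 918.4 CPM at 29°C.

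At the threshold of the study, an adjusted P value (P-adj) below 0.1, calls among the fatty acid oxidation and ketone genes depended on the tool. In edgeR's quasi-likelihood test, whose calls are meant below where no tool is named, 0 of 34 were called, against 1.94% of the 17779 genes tested, and 4 of 34 (*Acsl5*, *Acsl6*, *Acadvl* and *Acot13*) had an unadjusted p below 0.05, against 18.5% of all genes. DESeq2, run beside it, called 2 of 34, *Acsl5* and *Acsl6*, against 10.2% of all genes to which it gave an adjusted p. For 0 of 34 members did every mouse of one group lie above every mouse of the other, which was so for 1.24% of all genes. By the sign of the log2 fold change (22°C relative to 29°C) 22 of 34 members were higher and 12 lower at 22°C, whereas 51.6% of all genes were higher. The median log2 fold change was 0.08 over the members and 0.01 over all genes tested.

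The absence of a call does not show equal levels, and the intervals say how large a difference the data allow. The 95% interval of the fold change lay within 1.5-fold in either direction for 30 of 34 members and within 2-fold for 32. The exceptions to the wider limit were *Acsl6* and *Bdh1*, the 2 members with the lowest counts. In the other 32 members the level in the highest of the 13 mice was between 1.35 and 2.79 times that in the lowest, with a median of 1.69.

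**Figure D1:**
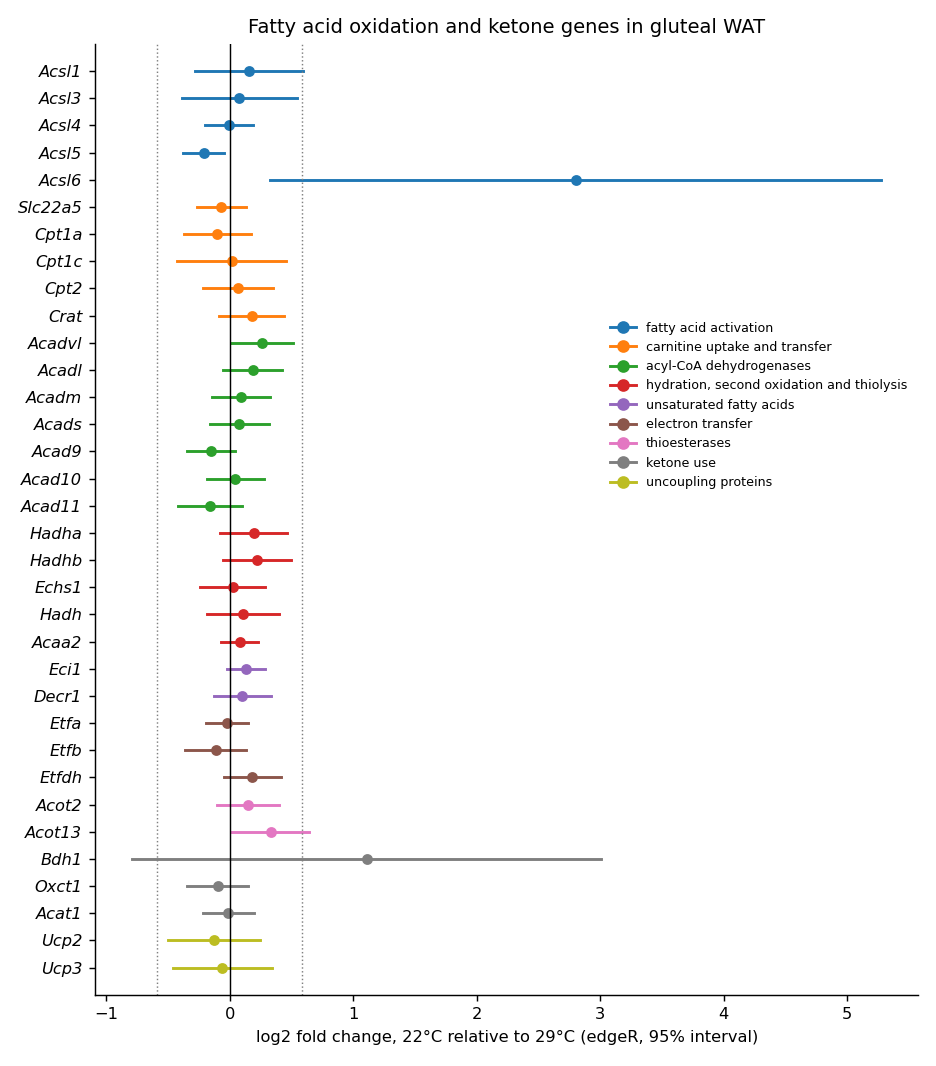
Log2 fold change of each of the 34 genes at 22°C relative to 29°C (points) with its 95% interval (lines), coloured by role. Dotted lines mark 1.5-fold in either direction. Of 34 points 32 sit between −0.21 and 0.33, the intervals of 30 genes stay between the dotted lines, and *Acsl6* and *Bdh1* have by far the widest intervals.

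Among the 5 acyl-CoA synthetases edgeR called 0, against 1.94% of all genes, and DESeq2 called 2 (*Acsl5* and *Acsl6*), against 10.2%. By their log2 fold change 3 were higher and 2 lower at 22°C. *Acsl1*, the main synthetase of adipocytes, was also the most abundant of the 34 genes per exon length. Its level ranged from 1385 to 2615 CPM (median 1936) at 22°C and, at 29°C, from 1351 to 2789 CPM (median 1683), so that the groups covered almost the same range. The log2 fold change was 0.15 ± 0.20 (SE, P-adj = 0.730). Per kb of exon *Acsl1* made up 87.3% to 92.6% of the summed ACSL level at 22°C and 85.5% to 93.4% at 29°C. When the longest principal transcript of each gene set the length, those shares were 93.6% to 96.8% and 93.2% to 97.2%.

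*Acsl5*, a synthetase of the outer mitochondrial membrane and endoplasmic reticulum, had the lowest unadjusted p of the 34. It measured 43.2, 51.0, 54.5, 56.3, 52.4, 53.9 and 45.9 CPM in the 7 mice at 22°C. At 29°C it measured 56.9, 57.0, 66.7, 63.2, 60.4 and 50.5 CPM in the 6 mice. All 7 mice at 22°C were below the 29°C mean of 59.1 CPM, and the groups overlapped only through 29°C replicate 6. The log2 fold change was −0.21 ± 0.08 (SE), with an unadjusted p of 0.0154 and a P-adj of 0.185 in edgeR and a P-adj of 0.09505 in DESeq2. *Acsl3* and *Acsl4*, which act mainly on lipid droplets and on arachidonic acid, had log2 fold changes of 0.08 ± 0.22 and −0.01 ± 0.09 (SE). Part of the exons of *Acsl5* (8.31%) lies opposite the gene *Zdhhc6*, and whether reads were counted by strand is not given in the sources used here.

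*Acsl6* had the largest fold change and one of the least certain. Its levels at 22°C were 35.7, 2.58, 0.997, 11.4, 0.382, 0.655 and 32.5 CPM in replicates 1 to 7. At 29°C they were 4.38, 0.270, 0.348, 1.47, 3.64 and 0.168 CPM in replicates 1 to 6. High values were limited to 22°C replicates 1, 4 and 7, and the 4 other mice at 22°C fell within the range at 29°C. Over all mice the log2 fold change was 2.80 ± 1.15 (SE), with an unadjusted p of 0.0292, a P-adj of 0.221 in edgeR and a P-adj of 0.09325 in DESeq2.

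The 3 mice with high *Acsl6* were those with the largest share of muscle counts. In a fit with both temperature and the muscle score (the mean log2 CPM of the 12 muscle genes), chosen after the data were seen, the slope of *Acsl6* on the muscle score was 0.87 ± 0.06 (SE, P-adj = 6.38e-07), while 1 of 34 members and 4.29% of all genes were called for that slope. In the same model its temperature difference was a log2 fold change of −0.06 (P-adj = 0.967). With the 4 and 6 libraries in which muscle genes took at most 1% of counts, the log2 fold change was −0.58 (P-adj = 0.847). The direction of *Acsl6* depended on the libraries with more muscle RNA. Slopes on the muscle score were positive for 8 of 34 members. Separately, 7 of 34 slopes had an unadjusted p below 0.05, a limit for which the share of all genes was not computed. Those slopes were positive for *Acsl3*, *Acsl6*, *Acot13* and *Bdh1* and negative for *Acads*, *Acad11* and *Hadh*.

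**Figure D2:**
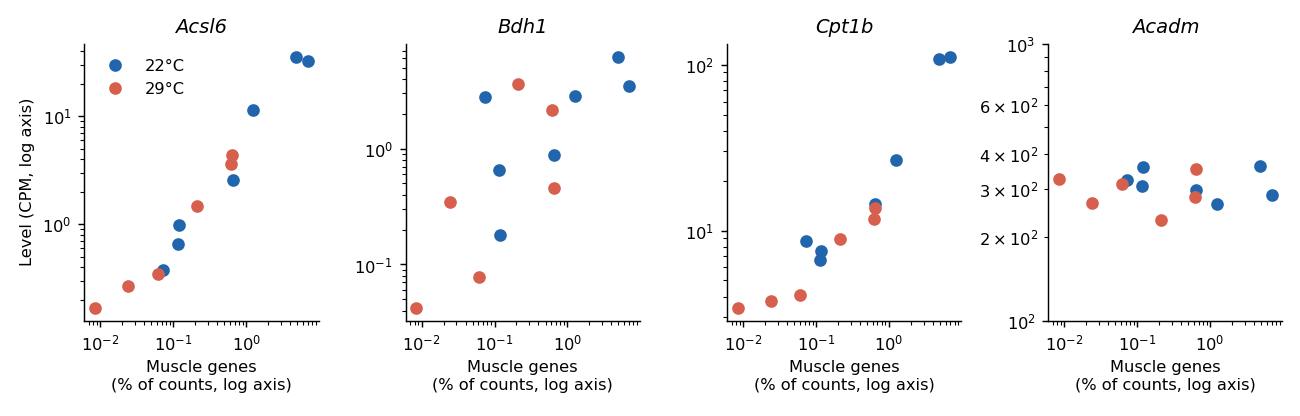
Level of *Acsl6*, *Bdh1*, *Cpt1b* and *Acadm* (CPM, log axis) against the percent of counts taken by 12 skeletal muscle genes (log axis), with 1 point per mouse in blue (22°C) or red (29°C). *Acsl6* and *Cpt1b* rise from left to right in mice of both temperatures, *Bdh1* does so with wide scatter, and *Acadm* stays between 231.6 and 360.9 CPM.

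Of 5 genes of carnitine uptake and transfer 0 were called, with 3 higher and 2 lower at 22°C by their log2 fold change (2 and 3 with upper-quartile scaling). *Cpt1a* encodes the liver type of CPT1, the step inhibited by malonyl-CoA, and its protein (CPT1α) is one of those that the study examined in adipocytes. *Cpt1a* ranged from 41.0 to 74.9 CPM (median 58.4) at 22°C and, at 29°C, from 52.9 to 73.7 CPM (median 62.1). Mice of both groups were interspersed, with the lowest level in 22°C replicate 1 and the highest in 22°C replicate 2. The log2 fold change was −0.10 ± 0.13 (SE, 95% interval −0.37 to 0.17, P-adj = 0.71). It was 0.01 with the muscle score in the model.

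Which CPT1 gene supplied the tissue differed more between mice than *Cpt1a* did. *Cpt1b*, the muscle and brown fat type, is not one of the 34 genes and was listed among the other genes of the pathway. Per kb of exon *Cpt1a* made up 14.1% to 71.0% of the 3 CPT1 genes at 22°C (median 63.6%) and 57.7% to 80.3% at 29°C (median 73.0%). The low shares of *Cpt1a* were 14.1% in 22°C replicate 1, 17.6% in 22°C replicate 7 and 46.3% in 22°C replicate 4, the libraries richest in muscle genes. *Cpt1b* was 107.6, 14.5, 7.52, 26.6, 8.61, 6.67 and 112.0 CPM in replicates 1 to 7 at 22°C and 3.41 to 13.7 CPM at 29°C. For temperature the log2 fold change was 2.41 ± 0.77 (SE), with a P-adj of 0.154 in edgeR and of 0.0317 in DESeq2, which called it, and its slope on the muscle score was 0.43 ± 0.06 (SE, P-adj = 0.0012).

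None of the remaining carnitine genes was called, and the mice of both temperatures overlapped in each. *Cpt2*, the transferase of the inner membrane, was 173.6 ± 29.8 CPM at 22°C and 165.4 ± 28.2 CPM at 29°C (SD). *Crat*, which makes acetylcarnitine from acetyl-CoA, was 387.1 ± 69.7 and 342.0 ± 41.1 CPM (SD), and the log2 fold change was 0.18 ± 0.12 (SE, P-adj = 0.461). *Slc22a5*, the carnitine transporter of the plasma membrane, was 27.7 ± 3.72 and 29.1 ± 2.71 CPM (SD). *Cpt1c*, a homologue best known from neurons, was 7.14 ± 2.46 and 7.06 ± 1.29 CPM (SD), and its log2 fold change of 0.02 turned to −0.01 with upper-quartile scaling.

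The acyl-CoA dehydrogenases catalyse the step that gives each chain length its own enzyme, and 5 of 7 were higher and 2 lower at 22°C, with 0 called. *Acadvl*, the dehydrogenase for very long chains, had the largest difference of the 7. It measured 215.5, 145.6, 194.8, 136.4, 161.5, 148.9 and 155.7 CPM in the mice at 22°C and 145.0, 127.4, 140.8, 109.1, 146.7 and 158.5 CPM in those at 29°C. Of 7 mice at 22°C 6 were above the 29°C mean of 137.9 CPM and 3 were above the highest mouse at 29°C. The log2 fold change was 0.26 ± 0.12 (SE), with an unadjusted p of 0.0424 and a P-adj of 0.253. It was 0.13 in the libraries with higher totals and 0.23 in those with at most 1% muscle counts. *Acadvl* shares 42.9% of its exon bases with *Dvl2* on the opposite strand, so its counts are uncertain without the strand setting.

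The other dehydrogenases for straight chains had smaller differences, none of them called. *Acadl*, for long chains, had a log2 fold change of 0.18 ± 0.11 (SE). *Acadm*, for medium chains, had one of 0.09 ± 0.11, and *Acads*, for short chains, had one of 0.08 ± 0.11 (SE). Mean levels at 22°C and 29°C were 199.6 and 175.6 CPM for *Acadl*, 313.7 and 294.8 CPM for *Acadm*, and 119.5 and 113.3 CPM for *Acads*. *Acad9*, which also helps to assemble respiratory complex I, measured 47.5 ± 5.38 CPM at 22°C and 52.8 ± 6.12 CPM at 29°C (SD, log2 fold change −0.15). *Acad11*, a more distant member of the family, measured 127.9 ± 20.9 and 143.0 ± 21.5 CPM (SD, log2 fold change −0.16). *Acad10*, its close relative, had a log2 fold change of 0.05 and one of −0.01 in the libraries with higher totals.

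**Figure D3:**
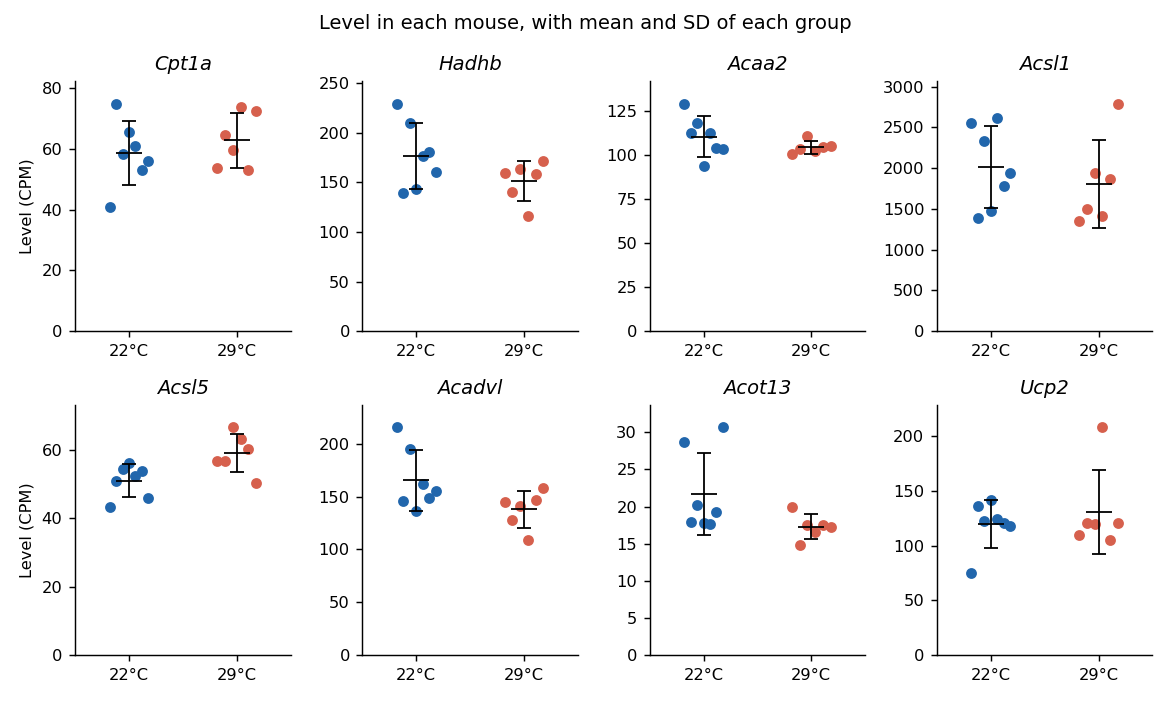
Level of 8 genes in each mouse (CPM, points) at 22°C (blue) and 29°C (red), with the mean and SD of the group in black. The groups overlap in every panel, *Acsl5* lies lower at 22°C in most mice, and for *Acot13* and *Ucp2* 1 or 2 mice stand apart from the rest.

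All 5 genes of hydration, the second oxidation and thiolysis were higher at 22°C by their log2 fold change, from 0.02 to 0.22, and 0 were called. *Hadhb* encodes the β subunit of the mitochondrial trifunctional protein (MTPβ), with the thiolase for long chains. It measured 229.4, 139.1, 209.9, 143.8, 176.3, 180.8 and 160.3 CPM in the mice at 22°C and 159.8, 140.2, 163.3, 116.7, 158.6 and 171.7 CPM in those at 29°C. Of 7 mice at 22°C 4 were above all mice at 29°C, and the lowest 2 at 22°C lay below 4 of 6 mice at 29°C. The log2 fold change was 0.22 ± 0.13 (SE, 95% interval −0.05 to 0.50, P-adj = 0.369). For *Hadha*, the α subunit with the hydratase and dehydrogenase, the log2 fold change was 0.19 ± 0.13 (SE, P-adj = 0.436).

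Counts of the 2 subunits kept a fairly steady ratio over the mice. Whether that ratio is steadier than for other pairs of members was not tested. The ratio of *Hadha* to *Hadhb* counts was 1.5 to 1.95 at 22°C (median 1.63) and 1.56 to 1.89 at 29°C (median 1.62), while *Hadhb* alone spanned 116.7 to 229.4 CPM. Both genes start from a common stretch of chromosome 5 on opposite strands, with start sites 273 bases apart in RefSeq (GRCm38.p6). The bases between those starts that belong to the promoter windows of both genes, chr5:30155003-30155230, are shown because the 2 windows overlap there. A part of this stretch in the levels of either gene was not tested. They are written on the plus strand, which is the strand of *Hadhb*, with the letters GGGCGG, a GC box, in capitals.
Hadha and Hadhb shared window: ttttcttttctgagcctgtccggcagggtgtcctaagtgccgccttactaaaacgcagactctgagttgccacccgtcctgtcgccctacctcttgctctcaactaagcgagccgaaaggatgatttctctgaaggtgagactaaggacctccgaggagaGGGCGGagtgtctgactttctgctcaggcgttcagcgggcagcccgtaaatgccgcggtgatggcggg
GGGCGG was searched on both strands in RefSeq windows of 250 bases before to 50 bases after each start, and 28 of 34 members had such a window. It was present in 22 of 32 member windows (68.8%) and in 35.7% of all 32851 windows. AGGTCA, the core letters of many nuclear receptor sites, which does not overlap it here, was present in 7 of 32 member windows (21.9%) and in 16.3% of all windows. Those matches describe letters in these windows and say nothing on binding of a factor.

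*Acaa2* encodes the medium-chain thiolase (MCKAT), and among the 5 genes of these steps its levels varied least between mice. *Acaa2* ranged from 93.5 to 129.0 CPM (median 112.2) at 22°C and, at 29°C, from 100.3 to 111.0 CPM (median 104.0). Of 7 mice at 22°C 4 were above all at 29°C and 1 was below all of them. The log2 fold change was 0.08 ± 0.07 (SE, 95% interval −0.07 to 0.23, P-adj = 0.570), and it was −0.02 in the libraries with higher totals. *Echs1*, the enoyl-CoA hydratase for short chains, was 255.0 ± 29.7 CPM at 22°C and 250.9 ± 45.0 CPM at 29°C (SD). *Hadh*, the hydroxyacyl-CoA dehydrogenase for medium and short chains, was 335.8 ± 65.1 and 311.5 ± 48.1 CPM (SD). *Hadh* also turned direction in the libraries with higher totals, from a log2 fold change of 0.11 to one of −0.12.

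Unsaturated fatty acids need extra enzymes to enter the spiral. *Eci1*, an isomerase that moves a double bond, was 98.9 ± 7.86 CPM at 22°C and 90.3 ± 8.55 CPM at 29°C (SD), and the log2 fold change was 0.13 ± 0.07 (SE, P-adj = 0.360). *Decr1*, a reductase for polyunsaturated chains, was 171.3 ± 23.9 and 159.5 ± 22.1 CPM (SD, log2 fold change 0.10). Both were higher at 22°C by their means, and 0 of 2 were called.

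Electrons of the first dehydrogenation pass through the electron transfer flavoprotein to ubiquinone. Its subunits *Etfa* and *Etfb* had log2 fold changes of −0.02 ± 0.08 and −0.11 ± 0.11 (SE), whereas *Etfdh*, which hands the electrons to ubiquinone, had one of 0.18 ± 0.11 (SE, P-adj = 0.387). *Etfdh* was 94.6 ± 14.8 CPM at 22°C and 83.3 ± 9.78 CPM at 29°C (SD), with 3 mice at 22°C above all at 29°C. The ratio of *Etfa* to *Etfb* counts was 1.1 to 1.64 at 22°C and 1.12 to 1.40 at 29°C. *Etfb* shares 53.0% of its exon bases with another annotated gene on the same strand, *Gm45233*, and its counts may hold reads that belong to either.

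Thioesterases release Coenzyme A and limit the pool of acyl-CoA. *Acot13*, a thioesterase of mitochondria for long and medium chains, measured 28.7, 18.0, 20.3, 17.8, 17.6, 19.3 and 30.7 CPM in the mice at 22°C and 19.9, 14.8, 17.6, 16.5, 17.5 and 17.3 CPM in those at 29°C. All 7 mice at 22°C were above the 29°C mean of 17.3 CPM, but only 22°C replicates 1 and 7, the libraries richest in muscle genes, were well above the range at 29°C. The log2 fold change was 0.33 ± 0.14 (SE), with an unadjusted p of 0.0380 and a P-adj of 0.243. It was 0.15 with the muscle score in the model and 0.11 in libraries with at most 1% muscle counts, but 0.53 both with the cluster of totals in the model and in the libraries with higher totals. *Acot2*, a thioesterase of the matrix, had a log2 fold change of 0.15 ± 0.12 (SE) and one of −0.28 in the libraries with higher totals. *Acot2* was 21.0 and 21.5 CPM in 22°C replicates 6 and 7, below all mice at 29°C, and 28.0 to 35.9 CPM in the other 5 mice at 22°C, above all of them. *Acot1*, a near-identical neighbour, makes the split of reads between these paralogues uncertain.

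Ketone use showed no call in 3 genes. *Oxct1*, which activates acetoacetate in tissues other than liver, was 265.6 ± 35.5 CPM at 22°C and 284.4 ± 47.3 CPM at 29°C (SD, log2 fold change −0.10). *Acat1*, the thiolase that splits acetoacetyl-CoA, was 262.4 ± 24.1 and 264.3 ± 36.2 CPM (SD, log2 fold change −0.01). Both are therefore present at levels like those of the spiral, whereas *Bdh1*, which oxidises β-hydroxybutyrate to acetoacetate, was much lower and varied widely between mice. *Bdh1* ranged from 0.181 to 6.22 CPM (median 2.80) at 22°C and, at 29°C, from 0.0421 to 3.61 CPM (median 0.404), and per kb of exon it was at most 1.08% of the 3 genes together. The log2 fold change of *Bdh1* was 1.11 ± 0.88 (SE, P-adj = 0.537), 0.23 with the muscle score in the model and 0.01 in libraries with at most 1% muscle counts. Leaving out 29°C replicate 4 raised it to 1.96, and leaving out 22°C replicate 1 lowered it to 0.68. A count of 0 in these libraries allows a level of up to 0.113 to 0.158 CPM, so the 2 lowest values of *Bdh1*, both at 29°C, cannot be told from 0.

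The uncoupling proteins *Ucp2* and *Ucp3*, carriers of the inner mitochondrial membrane, were both lower at 22°C by their log2 fold change, with 0 of 2 called. *Ucp2* measured 74.4 CPM in 22°C replicate 1 and 118.0 to 141.5 CPM in the other 6 mice at 22°C. At 29°C it measured 207.9 CPM in replicate 4 and 104.8 to 120.9 CPM in the other 5. The ranges of the groups overlapped, and the log2 fold change was −0.13 ± 0.17 (SE, P-adj = 0.736). That direction is uncertain, because the median of *Ucp2* was higher at 22°C (122.2 CPM) than at 29°C (120.4 CPM). Leaving out 1 mouse moved the log2 fold change between −0.188 and 0.0539. *Ucp2* is also abundant in macrophages, whose markers summed to 470.6 CPM in 22°C replicate 1, the lowest of all 13 mice but close to the 471.3 CPM of 29°C replicate 5, and to 835.0 CPM in 29°C replicate 4. The highest macrophage sums, however, were 918.4 CPM in 29°C replicate 1 and 859.1 CPM in 22°C replicate 6, where *Ucp2* was 109.6 and 121.0 CPM, and the part of macrophages in the level of *Ucp2* was not tested. *Ucp3*, best known from muscle and brown fat, was 26.5 ± 7.79 CPM at 22°C and 27.6 ± 3.89 CPM at 29°C (SD). Its lowest level was 13.7 CPM in 22°C replicate 6 and its highest 36.3 CPM in 22°C replicate 7.

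Mice differed from each other in most of the pathway at once, within both temperatures. In 22°C replicates 1 and 3, 26 and 28 of 34 members were above their own mean over the 13 mice, with median deviations of 0.16 and 0.20 on the log2(CPM + 0.5) scale. In 29°C replicates 2 and 4, 6 and 7 of 34 were above it, with median deviations of −0.12 and −0.26. Low levels also occurred at 22°C, where replicates 2 and 4 had 8 and 10 members above the mean, and high levels at 29°C, where replicate 6 had 23. White adipocyte markers summed to 23040 CPM in 22°C replicate 3 and 22970 CPM in 29°C replicate 6, the highest values of their groups, and to 18570 CPM in 29°C replicate 4, the lowest of its group, and their part in these levels was not tested. In 22°C replicate 1, which had 16550 CPM of white adipocyte markers, muscle genes were also high. *Cpt1a* and *Ucp2* went the other way in the extreme mice, with their lowest levels in 22°C replicate 1 and their highest levels at 29°C in replicate 4.

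**Figure D4:**
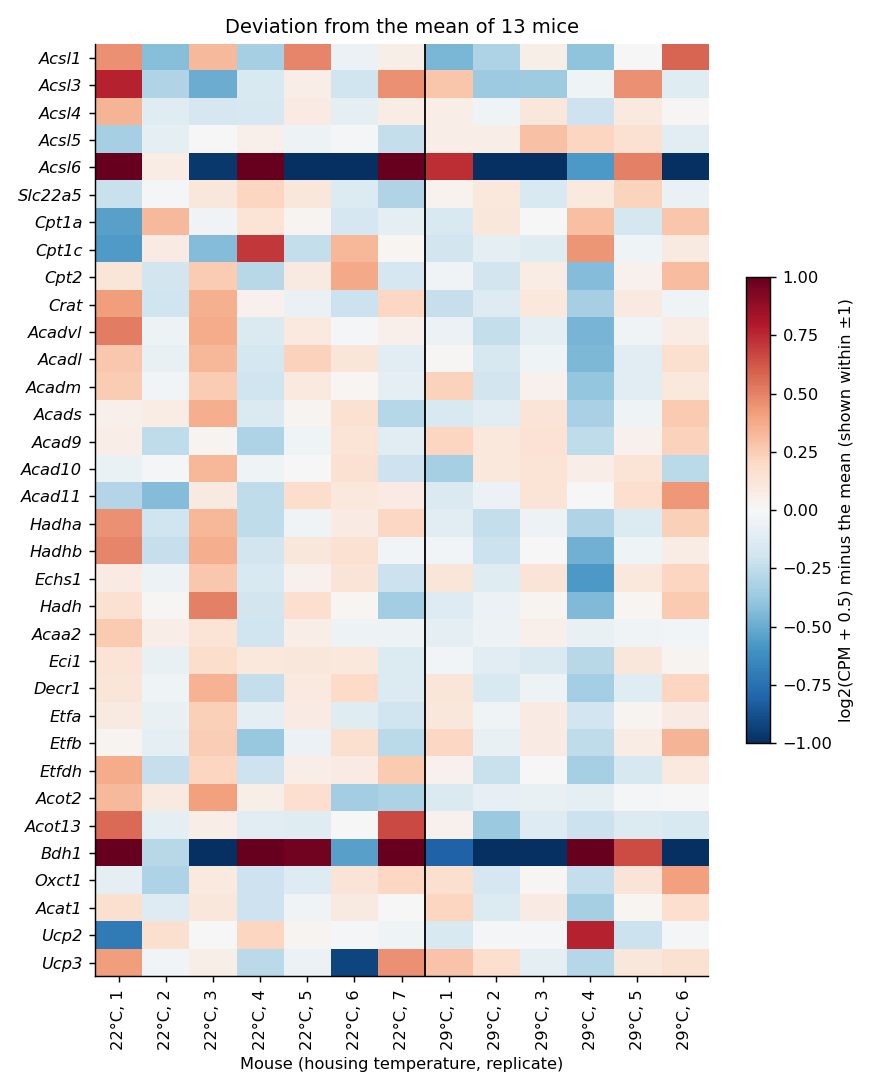
Deviation of each gene (rows) in each mouse (columns) from its mean over the 13 mice, in log2(CPM + 0.5), with red above and blue below the mean and the colours limited to 1 in either direction. Most genes are red in 22°C replicates 1 and 3 (26 and 28 of 34), 7 of 34 are red in 29°C replicate 4, and *Acsl6* and *Bdh1* vary beyond the scale.

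Levels between genes were compared per kb of merged exons at 29°C. *Acsl1* came first with 172.5 ± 51.3 CPM per kb, followed by *Etfb* with 132.4 ± 18.8, *Etfa* with 108.3 ± 8.12 and *Acadl* with 87.6 ± 12.0 CPM per kb (SD). *Acsl1* and *Etfb* are within their spread of each other, as are *Oxct1* (76.8 ± 12.8), *Acadm* (75.3 ± 11.4), *Acat1* (70.3 ± 9.64), *Cpt2* (69.2 ± 11.8) and *Acaa2* (68.9 ± 2.41 CPM per kb, SD). *Cpt1a*, at the entry to mitochondria, had 8.23 ± 1.19 CPM per kb, and *Cpt1c*, *Bdh1* and *Acsl6* came last with 1.26, 0.287 and 0.173 CPM per kb. Lengths come from an annotation of another build than the counts and include retained introns for some genes. With the principal transcript alone *Hadh* came next after *Acsl1* with 174.1 and *Echs1* rose to 161.1 CPM per kb, from 62.6 and 30.3 with merged exons, so the order among the more abundant genes rests on the length used.

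**Figure D5:**
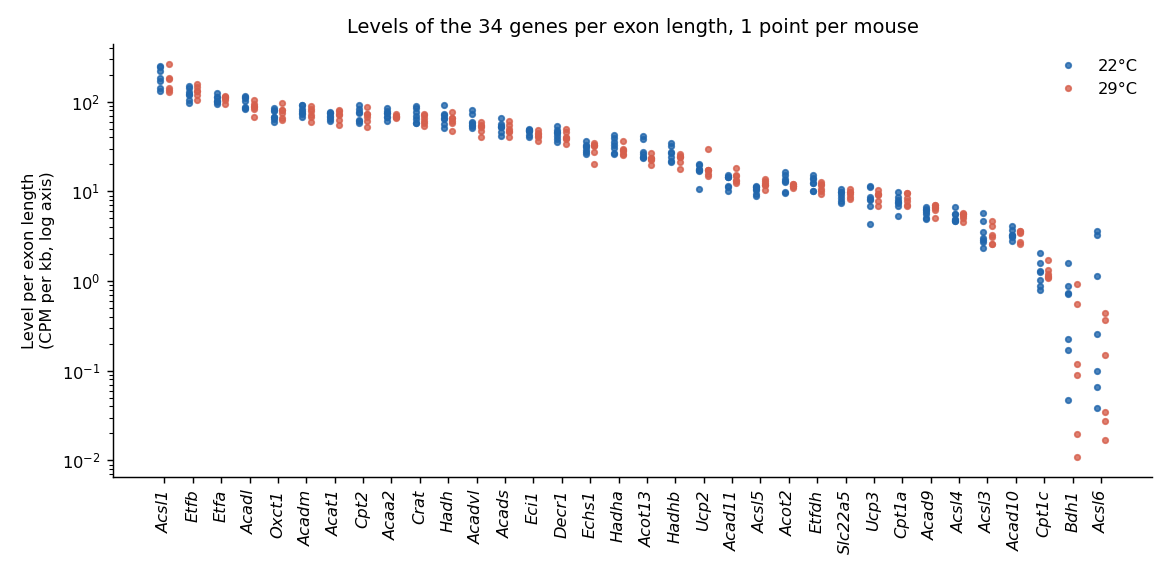
Level of each of the 34 genes per kb of merged exons (CPM per kb, log axis), ordered by the mean at 29°C, with 1 point per mouse in blue (22°C) or red (29°C). The 2 groups lie side by side for nearly every gene, and only *Bdh1* and *Acsl6* spread over more than 10-fold within a group.

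Beyond the 34 genes, 40 others of the same pathway were listed, of which 39 were in the table, 38 were tested and edgeR called 2, *Slc25a20* and *Mlycd*, against 1.94% of all genes. DESeq2 called 5, these 2 with *Cpt1b*, *Ppargc1a* and *Esrra*, against 10.2% of all genes. Of the 38, 22 were higher and 16 lower at 22°C, whereas 51.6% of all genes were higher. The median of their log2 fold changes was 0.05, and 10 had an unadjusted p below 0.05, against 18.5% of all genes. *Slc25a20*, the translocase that carries acylcarnitine through the inner membrane, measured 74.7, 58.8, 71.7, 62.6, 64.4, 60.2 and 57.5 CPM in the mice at 22°C. At 29°C it measured 46.9, 41.9, 42.9, 42.7, 48.0 and 51.6 CPM, with no overlap between the groups. *Slc25a20* rose at 22°C, and the log2 fold change was 0.49 ± 0.08 (SE, P-adj = 0.0174), and leaving out any 1 mouse kept the P-adj between 0.0156 and 0.0623. With the cluster of library totals in the model the log2 fold change was 0.37 (P-adj = 0.234), and in the libraries with higher totals it was 0.36 (P-adj = 0.265). In libraries with at most 1% muscle counts it was 0.47 (P-adj = 0.0757), and the slope of *Slc25a20* on the muscle score was −0.01 ± 0.01 (SE).

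*Mlycd*, malonyl-CoA decarboxylase, removes the inhibitor of CPT1. It was 45.5 to 58.3 CPM at 22°C (median 50.9) and 35.6 to 45.7 CPM at 29°C (median 41.0), and the ranges met only at 22°C replicate 5 and 29°C replicate 5. *Mlycd* rose at 22°C, and the log2 fold change was 0.34 ± 0.07 (SE, P-adj = 0.0724), a call that was lost in 7 of the 13 fits that left out 1 mouse, with P-adj up to 0.163 and a log2 fold change of 0.30 to 0.37. The call was also lost with no filter on low counts (P-adj = 0.151), the replicate block (0.1201), the muscle score (0.188), the cluster of totals (0.271), higher totals only (0.282) and at most 1% muscle counts (0.191). For *Acacb*, which makes malonyl-CoA at mitochondria, the log2 fold change was 0.49 ± 0.19 (SE, P-adj = 0.203), which did not pass.

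Of 8 regulators edgeR called 0, against 1.94% of all genes, and 4 had an unadjusted p below 0.05, against 18.5% of all genes. DESeq2 called 2, *Ppargc1a* (P-adj = 0.0663) and *Esrra* (P-adj = 0.0995), against 10.2% of all genes. *Ppargc1a*, a coactivator of mitochondrial genes, was 15.9 ± 6.76 CPM at 22°C and 8.72 ± 3.86 CPM at 29°C (SD, log2 fold change 0.87 ± 0.31 SE, P-adj = 0.187 in edgeR). It was 26.6, 15.1 and 17.6 CPM in 22°C replicates 1, 4 and 7, which had the most muscle RNA. In the other mice at 22°C it was 6.43 to 21.7 CPM. Its slope on the muscle score was 0.09 ± 0.05 (SE, P-adj = 0.388 in edgeR). *Esrra*, a nuclear receptor that works with *Ppargc1a*, was 54.9 ± 8.68 and 44.0 ± 5.80 CPM (SD, log2 fold change 0.32 ± 0.11 SE, P-adj = 0.177 in edgeR). *Ppara*, the fatty acid receptor, and *Pdk4*, a kinase that limits glucose oxidation, had log2 fold changes of 0.33 ± 0.15 and 0.78 ± 0.34 (SE), with P-adj of 0.251 and 0.239. *Pdk4* was 85.3, 67.6 and 66.1 CPM in 22°C replicates 1, 4 and 7, the libraries richest in muscle genes, 14.5 to 31.2 CPM in the other 4 mice at 22°C and 20.7 to 32.6 CPM at 29°C. Its log2 fold change was 0.27 with the muscle score in the model and −0.03 in libraries with at most 1% muscle counts. Of 6 genes of ketone synthesis and transport 0 were called. Of 9 auxiliary and other activating enzymes, 5 other thioesterases and 4 dehydrogenases of branched acyl-CoA and glutaryl-CoA, 0 were called, with medians of the log2 fold change of 0.03, −0.03 and −0.05.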

How the data were processed

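RNA from gluteal WAT of 7 mice at 22°C and 6 mice at 29°C was sequenced, with 1 library per mouse, and mice were grouped by the temperature and replicate number in the labels. Per the labels, the authors aligned reads with STAR 2.7.5a, and they deposited raw counts per gene from featureCounts and regularized log2 values from DESeq2. The submitters' processing notes name the GRCm39 build. The annotation release and strand setting are not given in the sources used here. Gene identifiers were matched to symbols without their versions, which named 34006 of 34419 genes. The annotation at hand is of GRCm38, so no gene positions are given other than those of the RefSeq promoter stretch.

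Counts were tested with edgeR 4.0.16 in R 4.3.3 (TMM scaling, filterByExpr, quasi-likelihood F test, no covariate, Benjamini-Hochberg adjustment over 17779 genes, P-adj below 0.1 called). An SE was obtained by dividing the absolute log2 fold change by the root of the F statistic, and totals for CPM were scaled by TMM. No 2 libraries were alike within sampling noise (lowest chi-square per gene 15.5 over 78 pairs). Limits for a count of 0 (3 counts) cover counting error only. Mice were housed singly, and the labels do not say whether any share a litter. The p-values treat the mice as independent and rest on the spread between these mice.

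The 34 genes, the wider list and the marker lists were chosen with earlier results of these data known. All 34 are named. Values per mouse are given for members with an unadjusted p below 0.05 and for *Cpt1a*, *Hadhb* and *Acaa2*, whose proteins the study measured, and wider genes are named with values where they were called. A gene of the wider list is not reported here. The values of *Acsl1*, *Acot2*, *Bdh1*, *Ucp2*, *Ucp3* and of wider genes that were not called were added after they were seen. Marker lists of lymphocytes (1 of 6 genes called), endothelium (0 of 4), red blood cells (0 of 5) and epithelium (0 of 3 tested) were also examined, against 1.94% of all genes called. Alternatives were DESeq2 1.42.0, other scalings and filters, a robust fit, the replicate number as a block, a covariate for the muscle score or for the cluster of totals, subsets of libraries, leaving out each mouse, limma 3.58.1 on the deposited log2 values and P-adj below 0.05. The slope on the muscle score and the principal transcript lengths were added after the data were seen. On simulated data of this comparison, with 17779 genes, edgeR recovered 133 of 194 changed genes (68.6%) with 17 false calls. Each changed gene was set 2-fold higher or lower at 22°C in that simulation. Smaller differences, such as those of most members, were not simulated, so the share recovered does not apply to them.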

Additional observations from a re-analysis of the deposited data

Results flagged for a closer look

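Both groups of mice were examined for values standing apart in each of the 34 genes (68 groups in all), and chance alone gives such a value in about 1 in 20 groups. *Ucp2* was found at both temperatures. In 22°C replicate 1 it was 74.4 CPM, and the gap to the nearest mouse (118.0 CPM) was 0.65 of the range of its group. In 29°C replicate 4 it was 207.9 CPM, and the gap to the nearest mouse (120.9 CPM) was 0.844 of the range.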

How the results depend on the processing

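The count of 0 called members held in every edgeR and limma fit, among them the replicate block (0), and DESeq2 called 2. Leaving out 1 mouse at a time gave 0 called members, 21 to 24 members higher at 22°C and a median log2 fold change of 0.04 to 0.12. In the 2 mice at 22°C with higher totals against those at 29°C, 17 members were higher at 22°C and the median was 0.0098. The number of called genes in the wider list was 2, but 5 with DESeq2, 1 with no filter on low counts, 1 with the replicate block, 1 with the muscle score, 0 with the cluster of library totals, 0 with higher totals only (with 4 and 8 genes called over all genes in those 2 fits), 1 with at most 1% muscle counts, 1 at P-adj below 0.05 and 1 to 3 when 1 mouse was left out. Replicate numbers were not taken to pair the mice, because the labels give them no shared litter or batch and not every correlation of same-numbered mice was above 0.1 (0.0508 to 0.5131 over 6 pairs). As a hint of pairing from the data alone, 4 of 6 mice at 22°C correlated best with their own number, and the replicate block called 263 genes against 345. Of the 34 genes, 16 kept their direction in every fit and 18 reversed in at least 1, mostly at log2 fold changes near 0, and 2 values, those of *Acsl5* and *Acsl6* with DESeq2, passed the threshold in an alternative. The direction reversed with the replicate block for *Acsl3* (−0.028), *Cpt1c* (−0.0361) and *Etfa* (0.0091), with the muscle score for *Acsl3* (−0.214), *Acsl6* (−0.0584), *Cpt1a* (0.0134), *Etfa* (0.017) and *Acat1* (0.0027), and with at most 1% muscle counts for *Acsl3* (−0.241), *Acsl6* (−0.577), *Cpt1c* (−0.0791) and *Etfa* (0.0145). *Cpt1c* was −0.0057 with upper-quartile scaling and −0.019 with limma. With higher totals only it reversed for *Acadm* (−0.0034), *Acads* (−0.032), *Acad10* (−0.0132), *Echs1* (−0.0427), *Hadh* (−0.125), *Acaa2* (−0.0184), *Acot2* (−0.278), *Oxct1* (0.0967) and *Acat1* (0.023). With the cluster of totals it reversed for *Acads* (−0.0212), *Acad10* (−0.0032), *Echs1* (−0.0326), *Hadh* (−0.114), *Acaa2* (−0.01), *Acot2* (−0.27), *Oxct1* (0.105) and *Acat1* (0.0319). Leaving out 1 mouse moved *Acsl3* between −0.081 and 0.189, *Acsl4* between −0.0708 and 0.0211, *Cpt1c* between −0.141 and 0.121, *Cpt2* between −0.0015 and 0.145, *Acad10* between −0.0122 and 0.083, *Echs1* between −0.0686 and 0.0703, *Etfa* between −0.0631 and 0.0111, *Acat1* between −0.0717 and 0.0333, *Ucp2* between −0.188 and 0.0539 and *Ucp3* between −0.152 and 0.0513. The cause of these changes was not tested, and the fits on fewer mice have fewer samples by construction. Depth limits only *Bdh1* and *Acsl6*, which had under 10 counts in at least 1 library.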
